A study of Homo sapiens with 8 samples.

Results

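Human A549 cells, a standard lung adenocarcinoma line, were starved of glucose after transfection with a small interfering RNA (siRNA) against steroid receptor coactivator 1 (SRC-1), the product of NCOA1, or with a control siRNA. The comparison takes the 2 arrays titled as SRC-1 siRNA without glucose against the 2 titled as control siRNA without glucose, which are 4 of the 8 arrays of the series. It covers every probe set that the platform annotation ties to 1 gene. The other 4 arrays, of the same transfections with glucose, entered the estimate of the spread between arrays and the mean over 8 arrays that set the filter on dim probe sets and the probe set kept for each gene. No value of theirs is given.

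All groups shared the same preparation. Cells were transfected with DharmaFECT 1, kept for 36 h with 10% serum that had been dialyzed to remove small molecules such as glucose, and then moved to medium that either held or lacked glucose. Neither the length of this last step nor the sequences of the siRNAs could be taken from the labels. RNA from RNeasy columns was labelled as biotinylated cRNA and hybridized to Affymetrix 3′ arrays that cover the genome. Arrays of 1 group are labelled as biological replicates, without a word on separate cultures, and p-values therefore cover only array-to-array spread, which may be technical. The knockdown is transient and was made in 1 cell line, and only its RNA was measured.

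SRC-1 is a member of the p160 family of coactivators. These proteins bind to ligand-activated nuclear receptors and other transcription factors, and bring histone acetyltransferases such as p300 and CBP to promoters and enhancers. In the liver and other metabolic tissues SRC-1 is known as a coactivator of genes of glucose and energy metabolism. Cells without glucose rely on mitochondrial oxidation of other fuels, and lack of glucose is also a known trigger of stress pathways in the endoplasmic reticulum and cytosol.

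Values are log2 signals, so a difference of 1 is a 2-fold change. The 4 arrays correlated at 0.9974 to 0.9979 over all probe sets, and the control pair (0.9978) and the SRC-1 siRNA pair (0.9975) were about as alike within a group as arrays of different groups. Probe sets were filtered on brightness, at a mean over the 8 arrays of 4.80, the 40th percentile of single-gene probe sets. All 8 markers listed for the epithelial cell line passed this filter, and their summed level on the log2 scale was 16.4 on each of the 4 arrays. They are EPCAM, CDH1, KRT7, KRT8 and KRT18 with the enzyme genes AKR1B10, AKR1C1 and NQO1, which are not specific to epithelium. AKR1C1, KRT18 and AKR1B10 were the brightest and EPCAM the dimmest, so the sum says little about EPCAM or CDH1. Of the alveolar type II markers, 6 of the 8 with a probe set passed, with SFTPD and SLC34A2 below the filter, and their summed level lay between 9.46 and 9.54. The summed levels of the fibroblast markers (5 of 9 past the filter) lay between 8.81 and 8.90, those of the leukocyte markers (3 of 8) between 7.55 and 7.59, and those of the endothelial markers (3 of 7) between 7.64 and 7.79. In each list the ranges of the 2 groups overlapped. The difference between 3′ and 5′ probe sets of GAPDH was 0.12 and 0.14 in control arrays and 0.13 and 0.13 in SRC-1 siRNA arrays, and that of beta-actin was 0.41 and 0.52 against 0.45 and 0.54.

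The targeted transcript was strongly lower. The NCOA1 probe set brightest over the 8 arrays (209106_at) read 8.34 and 8.24 with control siRNA and 5.22 and 5.09 with SRC-1 siRNA. The groups lay far apart, with a difference of −3.13 ± 0.11 (SE, n = 2 arrays per group), or 8.78-fold (limma with Benjamini-Hochberg adjustment, adjusted p = 1.65e-05). After knockdown its signal stood at the 45.5th percentile of single-gene probe sets, and no detection call was used, so how far background sets this level was not tested. In bulk RNA a partial loss in all cells and a full loss in some of them cannot be told apart.

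The other 3 NCOA1 probe sets differed in the same direction. Probe set 210249_s_at read 7.81 and 7.67 against 5.69 and 5.77, a 4.02-fold difference; it represents NCOA1 when probe sets are chosen on the 4 arrays without glucose, where the gene is also called (limma, adjusted p = 2.24e-04). Probe set 209107_x_at read 7.52 and 7.24 against 5.52 and 5.08, a 4.23-fold difference. The dimmest, 209105_at, read 6.17 and 6.09 against 3.84 and 3.76, a 5.04-fold difference; its SRC-1 siRNA values lie below the filter at 4.80, and the part of background in this fold was not tested. All 4 passed the threshold in the fit of all 41091 single-gene probe sets, and they were the only probe sets that did (0.00973% of those tested, beside 3.79% at an unadjusted p under 0.05). Of the probe sets with no gene or several, none was called in limma (0 of 13522) and 3.63% had an unadjusted p under 0.05.

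**Figure D1:**
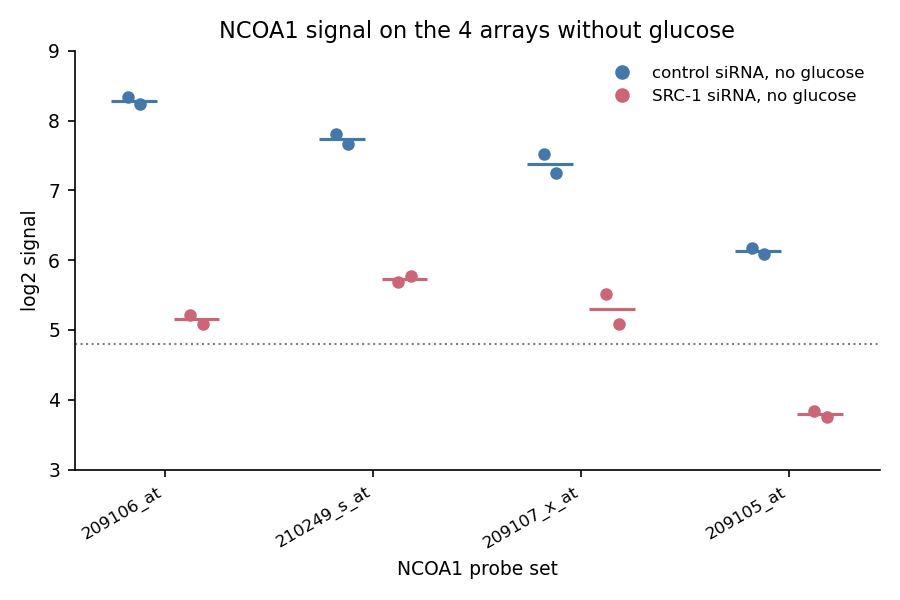
NCOA1 signal (log2, vertical axis) of each of its 4 probe sets on the 4 arrays without glucose; points are arrays, short lines are group means and the dotted line marks the filter on dim probe sets at 4.80. In every probe set both SRC-1 siRNA arrays lie below both control arrays, with folds between 4.02 and 8.78.

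Beyond the target, few transcripts differed. Of 13584 genes tested, 3 passed an adjusted p of 0.05 (0.0221%), and all 3 fell: NCOA1, SS18 and GPR180. No gene rose past the threshold in limma (0 of 13584, 0%), while 227 genes were higher and 207 lower at an unadjusted p under 0.05 (1.67% and 1.52% of all genes, 3.19% together). Only 4 genes differed by 1.5-fold or more, NCOA1, GPR180, SS18 and KLHL5, all of them lower, and 1 of them by more than 2-fold. The highest positive difference was 0.49, for SSTR5-AS1. Both control arrays of SSTR5-AS1 read below the filter on dim probe sets, which it passed on a mean that includes the arrays with glucose. The part of background in this difference was not tested.

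The intervals of most genes were narrow. Like the p-values, all intervals given here cover only array-to-array spread, which may be technical. They are per gene and without adjustment, and the labels do not tell whether they cover a repeat of the knockdown. The median SE over genes was 0.083, and for 98.7% of genes (13413) the 95% interval of the difference lay within 1.5-fold in either direction. For 13582 genes it lay within 2-fold, and the exceptions were NCOA1 and GPR180. The 1st and 99th percentiles of the differences were −0.25 and 0.25, and their median was 0.00054, with 6831 genes above zero and 6753 below. In 29.2% of genes both arrays of 1 group lay on the same side of both arrays of the other, lower with SRC-1 siRNA in 14.1% and higher in 15.2%. Calls of single genes rest on the spread that limma shares across genes and arrays, since with 2 arrays per group the smallest two-sided p of an exact permutation test is 0.333.

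**Figure D2:**
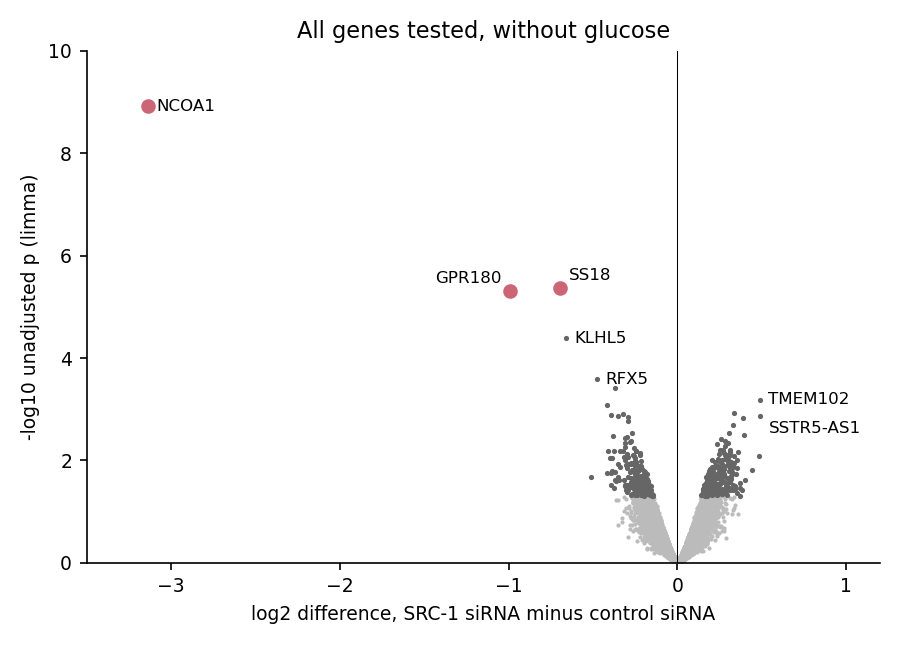
Each of the 13584 genes by its log2 difference, SRC-1 siRNA minus control siRNA without glucose (horizontal axis), and by −log10 of its unadjusted limma p (vertical axis); red points passed an adjusted p of 0.05, dark grey points an unadjusted p of 0.05. NCOA1, SS18 and GPR180 stand apart on the left, and no gene on the right passed the threshold.

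SS18 and GPR180 were the only calls beyond the target itself. KLHL5 had the next smallest p and missed the threshold (limma, adjusted p = 0.140). The windows of 250 bases upstream of their annotated starts are shown because these are the genes whose transcripts fell or came closest to it; they come from RefSeq (GRCh38.p14), read 5′ to 3′ on the strand of the gene, and capitals mark matches to the motifs named after them. SS18 lies on the minus strand (chr18:26091220-26091469), and GPR180 (chr13:94601607-94601856) and KLHL5 (chr4:39061982-39062231) lie on the plus strand.
SS18: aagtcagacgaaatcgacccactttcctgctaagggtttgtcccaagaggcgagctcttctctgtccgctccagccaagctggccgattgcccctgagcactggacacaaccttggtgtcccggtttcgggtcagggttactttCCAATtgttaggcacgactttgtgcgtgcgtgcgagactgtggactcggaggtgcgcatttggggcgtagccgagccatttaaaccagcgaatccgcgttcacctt
GPR180: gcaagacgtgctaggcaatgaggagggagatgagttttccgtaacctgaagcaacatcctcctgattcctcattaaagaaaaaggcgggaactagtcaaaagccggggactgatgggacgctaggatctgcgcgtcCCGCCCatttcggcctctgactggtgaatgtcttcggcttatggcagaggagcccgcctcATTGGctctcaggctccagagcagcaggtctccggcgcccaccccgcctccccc
KLHL5: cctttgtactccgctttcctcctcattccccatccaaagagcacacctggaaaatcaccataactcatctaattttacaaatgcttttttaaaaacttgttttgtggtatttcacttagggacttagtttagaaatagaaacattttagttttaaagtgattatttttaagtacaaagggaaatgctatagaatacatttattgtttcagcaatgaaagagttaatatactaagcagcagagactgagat

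Letters were searched on both strands. AGGTCA, the core element of many nuclear receptors (in 12.1% of the 27305 promoters in the table), and AGAACA, that of steroid receptors such as the glucocorticoid receptor (12.4%), are in none of these 3 windows. Neither are the AP-1 site TGANTCA (6.6%), the CREB site TGACGTCA (1.77%) or the E-box CACGTG (6.49%). CCAAT, which 33% of promoters hold, starts at position −106 from the annotated start of SS18 and, on the other strand, at −54 from that of GPR180. GGGCGG, the GC box bound by SP1 and present in 42.3% of promoters, starts at −114 in GPR180 on the other strand. GC content is 56.4% for SS18 and 58.4% for GPR180, close to the median of 58% over all promoters, and 32% for KLHL5. A match describes letters and not a bound site, and the absence of one says only that these letters are not in this window.

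SS18 encodes a subunit of the BAF (SWI/SNF) chromatin remodelling complexes and is the gene fused to SSX genes in synovial sarcoma. Its brightest probe set (202816_s_at) read 9.44 and 9.48 with control siRNA and 8.79 and 8.74 with SRC-1 siRNA. The pairs did not overlap and differed by −0.69 ± 0.066 (SE), or 1.62-fold (limma, adjusted p = 0.0221). The next probe set, 202817_s_at, read 8.37 and 8.43 against 7.61 and 7.76, or 1.64-fold. The remaining pair differed less, at 1.30-fold for 209954_x_at and 1.34-fold for 216684_s_at. In all 4 SS18 probe sets both SRC-1 siRNA arrays were below both control arrays, as they were in 14.9% of single-gene probe sets; the 4 names end in _s_at or _x_at, which marks probe sets that may match more than 1 transcript.

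GPR180 encodes a membrane protein of the G protein-coupled receptor type. Its brightest probe set (231871_at) read 7.25 and 7.54 against 6.42 and 6.39. The groups did not overlap, and the difference was −0.99 ± 0.096 (SE), or 1.99-fold (limma, adjusted p = 0.0221). Of its 6 probe sets 2 passed the filter, and the other of these (1566257_at) read 5.13 and 5.34 against 4.77 and 4.79, or 1.37-fold. The 4 dim GPR180 probe sets held 1 more in which both SRC-1 siRNA arrays were lower (−0.26), beside 14.9% of single-gene probe sets. In the rest the groups overlapped, with differences of −0.059, 0.061 and 0.016.

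The calls of SS18 and GPR180 depended on the fit. Without the filter on dim probe sets both had an adjusted p of 0.0655, in a fit of only the 4 arrays 0.263 and 0.331, and over all single-gene probe sets 0.103 and 0.0610 (limma). Over all alternatives the adjusted p ran from 3.29e-04 to 0.404 for SS18 and from 3.29e-04 to 0.331 for GPR180. SS18 was lost when any of the 8 arrays was left out (adjusted p = 0.0657 to 0.404), with a difference that stayed between −0.67 and −0.72. GPR180 was lost when any array was left out other than replicate 1 of control siRNA without glucose (adjusted p = 0.0718 to 0.283 where lost, 0.0152 without that replicate), and when a gene's probe sets were averaged (−0.72, adjusted p = 0.0804).

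KLHL5 belongs to the Kelch-like family, many of whose members are adaptors of cullin-3 ubiquitin ligases. It read 11.10 and 11.14 with control siRNA and 10.36 and 10.56 with SRC-1 siRNA (226001_at). The pairs did not overlap; the difference was −0.66 ± 0.084 (SE), or 1.58-fold, and missed the threshold (limma, adjusted p = 0.140). It passed under a filter at the 60th percentile (adjusted p = 0.0363) and under a prior that follows mean expression (3.29e-04), in a range of 3.29e-04 to 1.00 over all alternatives. In 5 of its 5 probe sets both SRC-1 siRNA arrays were lower, as they were in 14.9% of single-gene probe sets. The differences of these 5, which share the same RNA, lay between −0.17 and −0.66.

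**Figure D3:**
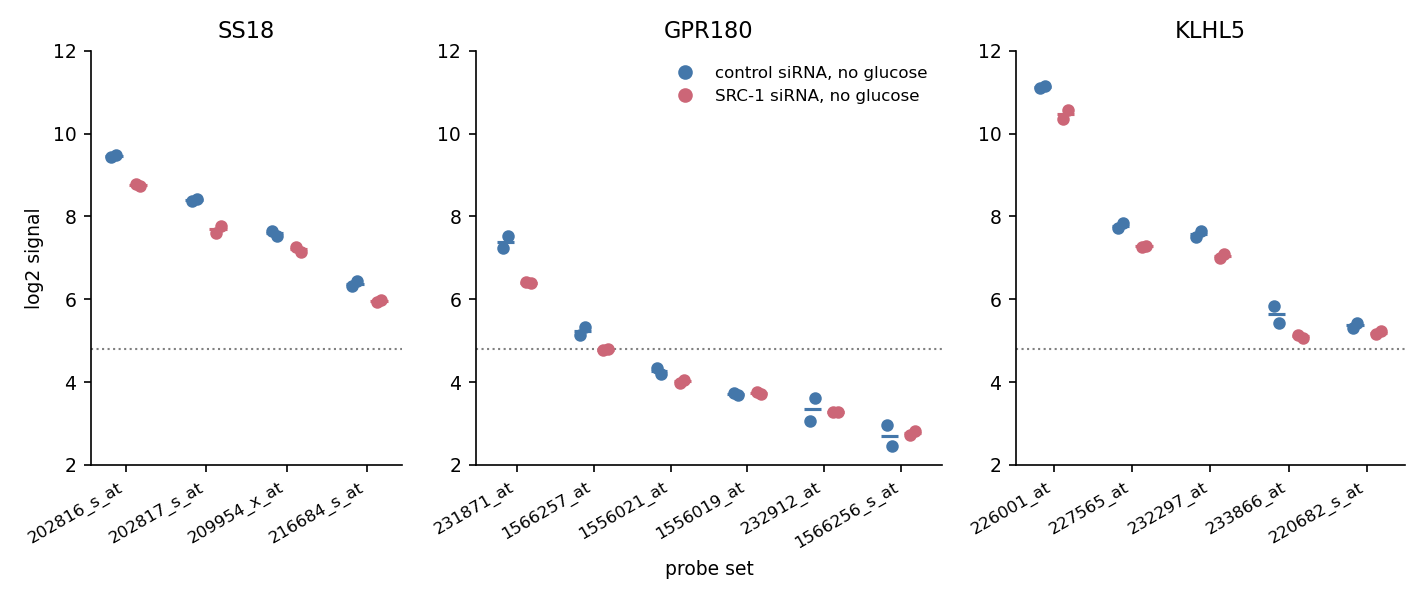
Signal (log2, vertical axis) of every probe set of SS18, GPR180 and KLHL5 (horizontal axis) on the 4 arrays without glucose; points are arrays, short lines are group means and the dotted line is the filter at 4.80. Both SRC-1 siRNA arrays lie below both control arrays in 4 of 4 SS18 probe sets, 3 of 6 of GPR180 and 5 of 5 of KLHL5. The same holds for 14.9% of all single-gene probe sets.

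After these genes the differences were small and none passed the threshold. RFX5, a subunit of the factor that activates MHC class II promoters, read 9.01 and 9.07 against 8.61 and 8.53, a difference of −0.47 ± 0.078 (limma, adjusted p = 0.709; 0.0481 with a prior that follows mean expression). Its other probe set read 7.92 and 7.83 against 8.02 and 7.85, so the probe sets of RFX5 disagreed. SIGLEC10, a sialic acid-binding lectin of immune cells, read 5.32 and 5.35 against 4.98 and 4.95 (−0.37, adjusted p = 0.876). DPY19L1, an enzyme that attaches mannose to tryptophan residues of proteins, read 9.86 and 9.82 against 9.42 and 9.42 (−0.42). Its other probe set past the filter differed by only −0.046, with overlapping groups. EMP2, a tetraspan membrane protein of epithelia, read 8.09 and 8.15 against 7.85 and 7.76 (−0.32). DEPDC1, a gene expressed in dividing cells, read 9.33 and 9.37 against 9.03 and 9.09 (−0.29), and its other 3 probe sets differed by −0.33, −0.34 and −0.26.

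Further genes completed the lower side. TMOD2, which caps actin filaments, differed by −0.39, CHRNG, a subunit of the fetal muscle acetylcholine receptor, by −0.35, and the pseudogene CLUHP3 by −0.29. Both SRC-1 siRNA arrays of TMOD2 (4.61 and 4.75) read below the filter on dim probe sets, and the part of background was not tested. The other CLUHP3 probe sets differed by −0.079 and 0.022, with overlapping groups. RP2, a GTPase-activating protein for ARL3, had a larger difference of −0.51 but a wide spread, at 8.72 and 9.22 against 8.25 and 8.68. In the probe set kept for each of these genes both SRC-1 siRNA arrays were below both control arrays, which was part of how the genes were chosen. Every one of these genes had an adjusted p of 0.999 in limma.

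On the higher side the 12 genes of smallest p differed by 0.24 to 0.49, and in all of them both SRC-1 siRNA arrays lay above both control arrays, which was part of how they were chosen. TMEM102 read 5.11 and 5.20 against 5.68 and 5.60 (0.49 ± 0.093), and the antisense transcript SSTR5-AS1 read 4.41 and 4.38 against 4.97 and 4.81 (0.49 ± 0.10). SESN3, a sestrin that restrains mTORC1 when nutrients or amino acids are low, read 5.33 and 5.50 against 5.85 and 5.77 (0.39 ± 0.097). ADAMTS9, a secreted metalloprotease, read 4.85 and 4.82 against 5.21 and 5.24 (0.39). TNFSF15, a cytokine of the TNF family, read 6.58 and 6.43 against 6.79 and 6.88 (0.33). Each of these 5 genes had an adjusted p of 0.999 in limma, and several sat close to the filter on dim probe sets at 4.80. SSTR5-AS1 read below that level on both control arrays and passed on a mean that includes the arrays with glucose.

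Further genes completed the higher side. CCDC127 read 8.85 and 8.85 against 9.24 and 9.13 (0.33), NACC2, a BTB-domain transcriptional repressor, 9.10 and 9.16 against 9.47 and 9.41 (0.31), and VPS36, a subunit of the ESCRT-II complex that sorts membrane proteins for degradation, 8.67 and 8.68 against 8.96 and 8.98 (0.30). The other NACC2 probe set differed by only 0.014, with overlapping groups. MAMLD1 (0.28), ANXA13 (0.26) and DTNB (0.24) differed less. TBC1D8B (0.49), SCGB3A1, a secretoglobin of airway epithelium (0.44), and ZSWIM5 (0.40) had large positive differences and were dim, with group means between 4.52 and 5.76. The control means of SCGB3A1 (4.52) and ZSWIM5 (4.55) lay below the filter on dim probe sets, which both passed on the mean over 8 arrays. The part of background in these differences was not tested. Further probe sets of the genes of smallest p, apart from NCOA1, SS18, GPR180 and KLHL5, had the sign of the brightest probe set in 10 of 12 cases (83.3%, 7 genes). For all genes this held in 6087 of 11071 (55.0%). Sign alone was counted, so the near-zero probe sets of DPY19L1 and NACC2 are among the 10. The genes of smallest p were chosen on the same arrays for a difference in their brightest probe set. Their share and that of all genes are therefore not a like comparison. Probe sets of 1 gene share the same RNA and are not replicates, so their agreement is no further evidence of a difference.

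The measured pathway genes were then read list by list. The 40 lists held 976 genes, of which 861 were tested. None of them was called in limma, beside 3 of all 13584 genes (0.0221%). At so low a share most lists would hold no call, so its absence says little about any list below. At an unadjusted p under 0.05 in limma, 5 of the 861 genes were higher and 10 lower. Over all 13584 genes these counts were 227 and 207 (1.67% and 1.52%). List medians ran from −0.080 to 0.046, with 13 above and 27 below zero, beside a median of 0.00054 and 49.7% of genes below zero over all genes. When 1 array was left out, 29 of the 40 medians took both signs. The farthest member of any list was E2F2, at 0.38.

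**Figure D4:**
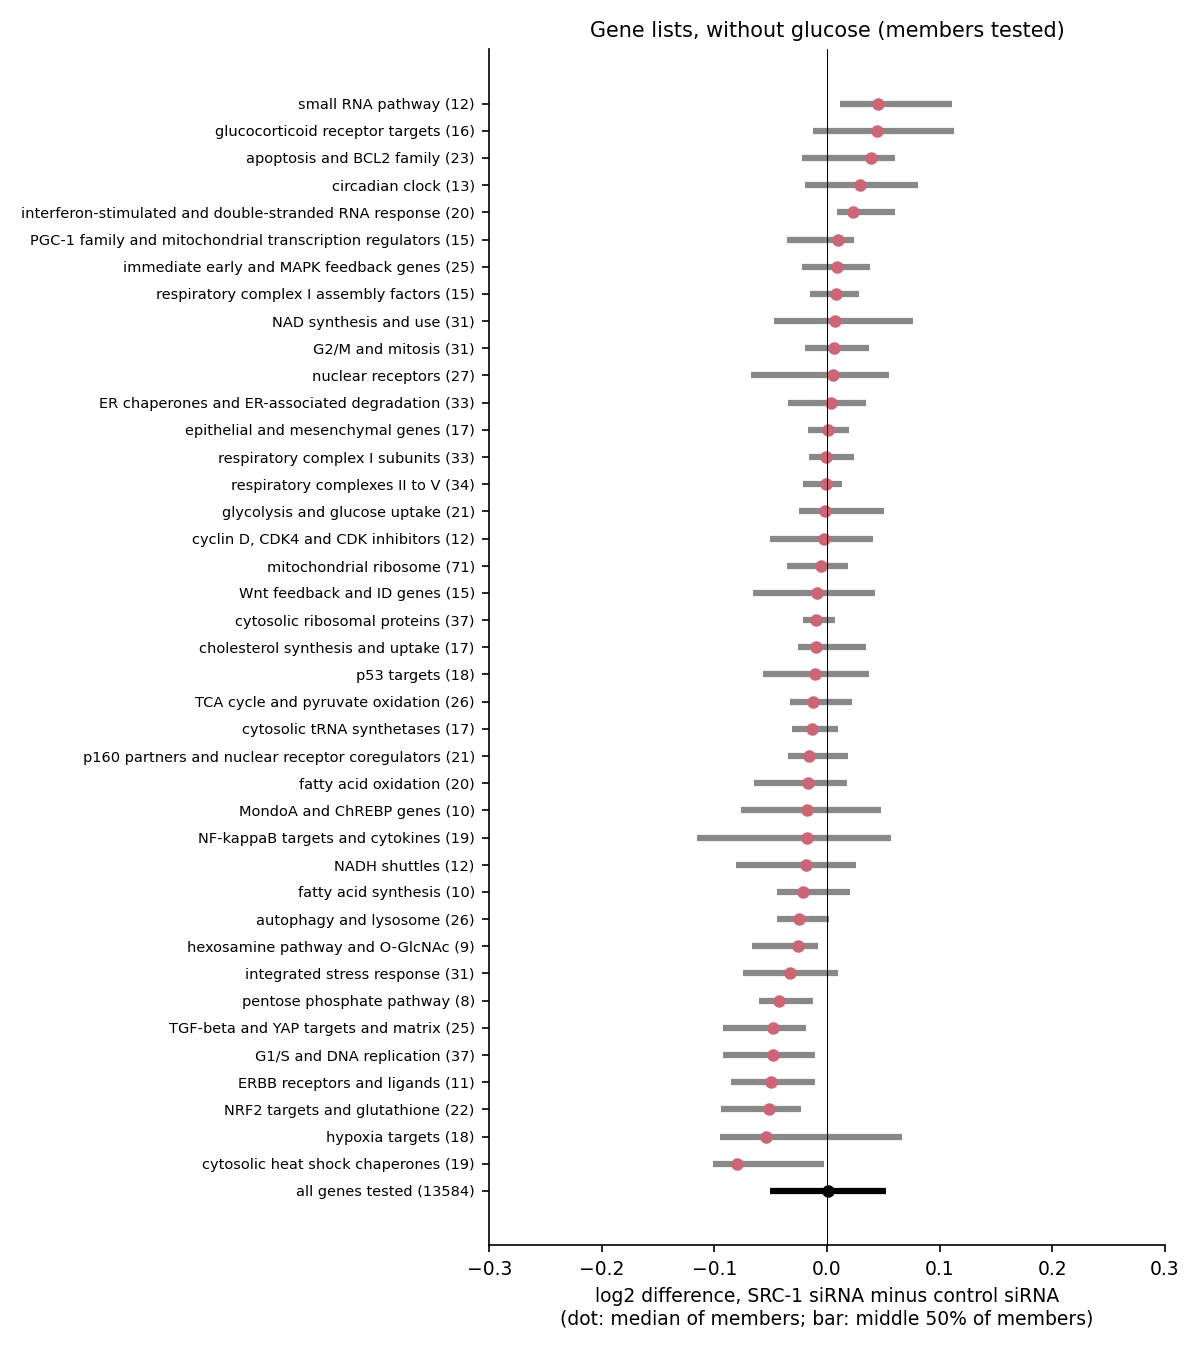
Median (red dot) and middle 50% (grey bar) of the log2 difference, SRC-1 siRNA minus control siRNA without glucose, for each of the 40 gene lists, with the number of members tested in brackets and all genes in black at the bottom. The medians lie between −0.080 and 0.046, and no list holds a called gene.

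No partner of SRC-1 was called. Its p160 relative NCOA2 read 9.19 and 9.20 against 9.13 and 9.32, a difference of 0.025 ± 0.099. The 21 coregulators tested had a median of −0.016, and 9 lay above and 12 below zero. NSD1, a histone methyltransferase that binds nuclear receptors, had the smallest p, at 6.56 and 6.51 against 6.76 and 6.72 (0.21 ± 0.077). Its difference was −0.035 with its probe sets averaged and −0.084 with probe sets chosen on the 4 arrays. The 95% interval of all 21 lay within 1.5-fold in either direction.

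None of the 27 nuclear receptors tested was called, and their median was 0.0052, with 14 above zero. The thyroid hormone receptor gene THRB had the largest difference, at 6.19 and 6.47 against 5.89 and 6.09 (−0.34 ± 0.11, limma adjusted p = 0.999). The glucocorticoid receptor gene NR3C1 differed by 0.029 ± 0.076, ESRRA, an orphan receptor of mitochondrial genes, by 0.070 ± 0.11, and PPARG, a receptor for fatty acid ligands, by −0.12. Among 16 targets of the glucocorticoid receptor 11 lay above zero with a median of 0.045, but leaving out single arrays moved this median between −0.041 and 0.083. FKBP5, a classical glucocorticoid target, read 8.24 and 8.11 against 8.24 and 8.14.

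Mitochondrial genes showed no called member. Complex I, the NADH dehydrogenase at the entry of the respiratory chain, had 33 subunits tested, with a median of −0.00069 and differences between −0.12 (NDUFA5) and 0.055 (NDUFA13). NDUFS1, a core subunit of the complex, read 10.02 and 9.97 against 9.96 and 10.01, and NDUFV1, the subunit that binds NADH, 10.96 and 10.82 against 10.89 and 10.87. NDUFA9 read 10.93 and 11.01 against 10.95 and 10.96. In each of these 3 genes the groups overlapped, and over all 33 subunits the 95% intervals lay between −0.37 and 0.21.

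The rest of the respiratory chain also held no called gene. The 15 complex I assembly factors had a median of 0.0078, and NDUFAF6 had the largest difference (0.10). The 34 subunits of complexes II to V had a median of −0.00097 with 16 above zero. Among 15 regulators of mitochondrial transcription, PPARGC1B, a coactivator of the PGC-1 family, differed most (−0.14 ± 0.12), and its relative PPARGC1A did not pass the filter. With the NAD, shuttle, citric acid cycle, fatty acid oxidation and mitochondrial ribosome lists, 256 genes of mitochondria and oxidation were tested. None was called, 1 was past an unadjusted p of 0.05 (0.391%, beside 3.19% of all genes), and all 256 intervals lay within 1.5-fold.

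NAD serves as the electron carrier of glycolysis and oxidation and as the substrate of sirtuins. Of 31 genes of its synthesis and use none was called, and the median was 0.0068. NAMPT, the rate-limiting enzyme of NAD salvage, read 11.91 and 11.89 against 11.62 and 11.87, a difference of −0.15 ± 0.10 that came mainly from 1 of the SRC-1 siRNA arrays. IDO1, which starts tryptophan breakdown toward NAD, read 5.56 and 5.53 against 6.00 and 5.71 (0.31 ± 0.11). The sirtuin genes SIRT3 (0.16) and SIRT1 (−0.18) differed in opposite directions, and NNT, the mitochondrial transhydrogenase, by 0.14 (−0.0076 with its probe sets averaged). Among 12 genes of the NADH shuttles GOT1 and GOT2, the aspartate aminotransferases, differed by −0.096 and −0.086. SLC25A12, a mitochondrial aspartate-glutamate carrier, differed by 0.13, but by −0.25 without probe sets ending in _s_at or _x_at.

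**Figure D5:**
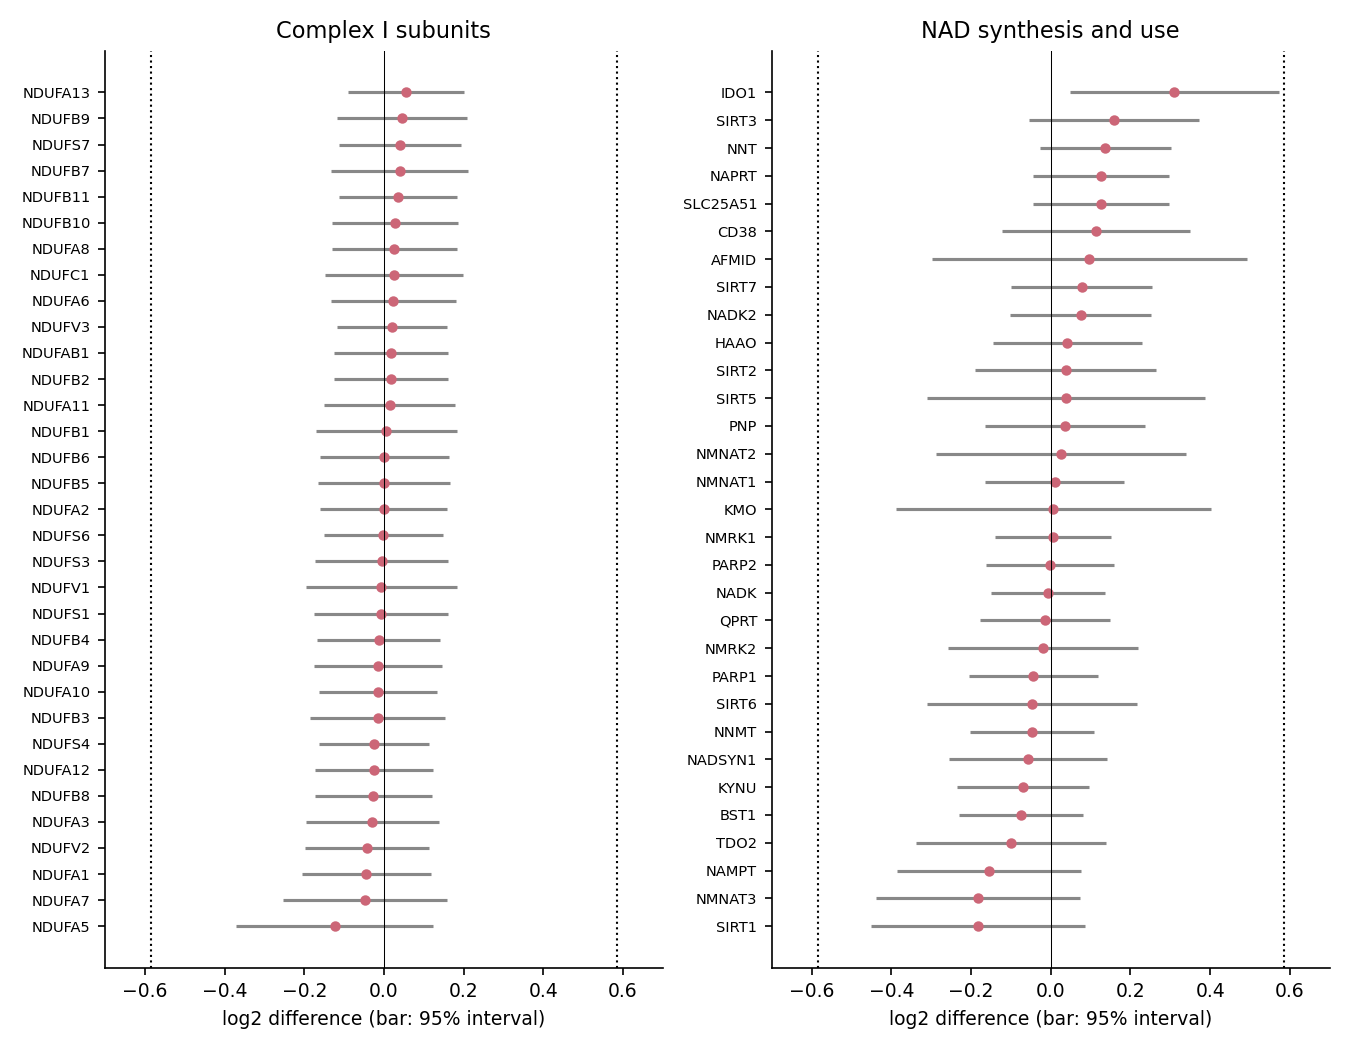
Log2 difference, SRC-1 siRNA minus control siRNA without glucose (horizontal axis), of each complex I subunit (left) and each gene of NAD synthesis and use (right); dots are estimates, bars 95% intervals and dotted lines mark 1.5-fold. All 33 and all 31 intervals lie between the dotted lines.

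Genes of carbohydrate use were not called either. Of 21 genes of glycolysis and glucose uptake 10 lay above and 11 below zero, with a median of −0.0022. ALDOC, an aldolase isoform, read 6.48 and 6.48 against 6.67 and 6.74 (0.23 ± 0.072), the highest difference of the list. SLC2A3, a glucose transporter, differed by −0.19, PFKM, the muscle phosphofructokinase, by −0.10, and HK2, a hexokinase, by 0.11. All 8 genes of the pentose phosphate pathway, which makes NADPH, were below zero, but by no more than −0.084 (H6PD), with a median of −0.042. Among 26 genes of the citric acid cycle and pyruvate oxidation PDK4, the kinase that inhibits pyruvate dehydrogenase, differed by 0.20. TXNIP, a target of the sugar-sensing factor MondoA, read 6.20 and 6.35 against 5.99 and 6.22 (−0.18). Its other probe set past the filter differed by 0.023, and the groups overlapped in both. The 9 genes of the hexosamine pathway had a median of −0.026.

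Stress pathways that respond to lack of glucose had no called member. HSPA5, the endoplasmic reticulum chaperone BiP, read 14.42 and 14.41 against 14.38 and 14.46, a difference of 0.0035 ± 0.063. Of 33 genes of its chaperone and degradation list 20 lay above zero, with a median of 0.0035. In the integrated stress response, which acts through ATF4, 22 of 31 genes lay below zero with a median of −0.033 (−0.045 to −0.022 when single arrays were left out). Its main factors differed little, with ATF4 at −0.028, DDIT3 at −0.053 and the asparagine synthetase gene ASNS at −0.10. The largest differences were those of PSAT1, a serine synthesis enzyme (−0.22), STC2, a secreted glycoprotein (−0.21, but 0.012 without probe sets ending in _s_at or _x_at), and VLDLR, a lipoprotein receptor (−0.21).

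Heat shock chaperones showed the lowest list median and the widest gap between control arrays. Their median was −0.080 with 15 of 19 genes below zero. The inducible chaperone HSPA6 read 10.61 and 11.69 with control siRNA and 11.23 and 10.80 with SRC-1 siRNA, and DNAJB1, a co-chaperone, 10.16 and 10.79 against 10.48 and 10.27. Both SRC-1 siRNA values thus lay between the control values. The list median per array, as a deviation from each gene's mean over the 4 arrays, was −0.11 and 0.17 in controls and 0.015 and −0.063 in SRC-1 siRNA arrays, and leaving out single arrays moved the difference between −0.20 and 0.12.

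Genes of the cell cycle had no called member. Of 37 genes of G1/S and DNA replication 30 lay below zero, with a median of −0.048. MCM6, a subunit of the replicative helicase, read 9.89 and 10.04 against 9.71 and 9.69 (−0.26 ± 0.076), and the cyclin E gene CCNE1 8.28 and 8.46 against 8.22 and 8.13 (−0.20). E2F2, a factor of the same phase, lay on the other side at 0.38, which rested on 1 SRC-1 siRNA array (5.81 and 5.68 against 5.88 and 6.38). The per-array medians of the list were −0.019 and 0.081 in controls against −0.013 and −0.021, so replicate 2 of the control stood above the rest, and leaving out single arrays gave medians of −0.098 to −0.0068. The 31 mitotic genes had a median of 0.0065 with 16 above zero, and CDKN1A, the p53-induced inhibitor of cyclin-dependent kinases, differed by −0.0069.

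Cell death, autophagy and redox genes had no called member. Of 23 apoptosis genes 16 lay above zero with a median of 0.039 (−0.016 to 0.041 when single arrays were left out), among them BCL2 (0.20) and BCL2L1 (0.13), which protect from apoptosis, while BMF, a promoter of apoptosis, differed by −0.25. Of 26 genes of autophagy and lysosomes 18 lay below zero, with TFEB, their transcription factor, at −0.12. Of 22 NRF2 targets, antioxidant genes that the KEAP1 mutation of A549 is known to keep high, 19 lay below zero with a median of −0.052 (−0.052 to −0.040 when single arrays were left out). ME1, which supplies NADPH, differed by −0.17, and GCLM and GCLC, the subunits of the first enzyme of glutathione synthesis, by −0.13 each. HMOX1, heme oxygenase, differed by −0.19 with overlapping groups, at 11.20 and 11.93 against 11.52 and 11.23.

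Lipid and signalling lists were also close to zero. Cholesterol genes had a median of −0.010, and HMGCS1, at the start of their pathway, read 8.81 and 9.37 against 9.06 and 9.07. Among 19 NF-kB targets and cytokines IL1B (−0.30) and LIF (−0.19) lay below and CCL2 above zero (0.24). Of 25 targets of TGF-beta and YAP with matrix genes 21 lay below zero with a median of −0.048 (−0.094 to −0.014 when single arrays were left out), the largest being CCN1, a YAP target, at −0.14. Of 11 ERBB receptors and ligands 9 lay below zero, and the ligand gene HBEGF read 8.38 and 8.73 against 8.62 and 8.01. Hypoxia targets had a median of −0.054 (−0.095 to −0.0080), with EGLN3, a prolyl hydroxylase, at −0.23 and VEGFA at −0.13.

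An siRNA is itself a small RNA, so the machinery that uses it and the interferon response to foreign RNA were read as well. Of 12 genes of the small RNA pathway 11 lay above zero with a median of 0.046 (0.043 to 0.071 when single arrays were left out), and none was called. TNRC6C, a scaffold of silencing complexes, read 5.43 and 5.37 against 5.72 and 5.56 (0.24 ± 0.072, but 0.085 in its lowest alternative). TNRC6B differed by 0.13 and the Argonaute gene AGO3 by 0.11, while AGO2, the Argonaute that cuts target RNA, differed by 0.0050. TNRC6A was the only gene of the list below zero, at −0.11 with overlapping groups. Of 20 interferon-stimulated genes 16 lay above zero with a median of 0.023 (−0.0033 to 0.066 when single arrays were left out). IFIT1, an RNA-binding effector of interferon, read 4.12 and 4.04 against 4.36 and 4.18 (0.19 ± 0.13), and USP18, which dampens interferon signalling, lay on the other side (−0.16).

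A list of BAF complex subunits was read because SS18 is one of them, and was chosen after that result was seen. Of 27 subunits tested none was called, and the median was −0.0028 with 13 above zero. BCL7A, a small accessory subunit, had the largest difference at −0.38 ± 0.13 (limma, adjusted p = 0.999). SS18 itself was not counted in this list.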

How the data were processed

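The authors deposited 1 table of values per probe set for the 8 arrays, used here as log2 signal. The base was inferred from hybridization spikes, which stood 1.91, 1.92 and 2.14 apart. Background correction, summarization and normalization are not given in the sources used here. Groups came from the sample titles. Array medians lay between 4.97 and 5.01, and precision is limited by having 2 arrays per group. Detection calls were not used here.

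Of 54675 probe sets, 62 were controls, 41091 had 1 gene in the platform annotation, 1801 had several and 11721 were not listed. Entrez identifiers matched 41037 of the single-gene probe sets to RefSeq (GRCh38.p14), and 54 kept the annotation's symbol. Probe sets with a mean over 8 arrays under the 40th percentile were left out, and the brightest per gene was kept.

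All 8 arrays entered 1 limma fit (limma 3.58.1, R 4.3.3) with a mean per group, moderated by eBayes (4 residual and 4.35 prior degrees of freedom), two-sided, with Benjamini-Hochberg adjustment over 13584 genes and a threshold of 0.05. All single-gene probe sets were fitted likewise without the filter. The fit was tested on simulated data. Same-numbered arrays deviated from their group means with a correlation of −0.0022, so replicate numbers were not used to pair arrays.

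The text names NCOA1, called genes, the 12 smallest p and 6 largest changes in each direction among genes whose groups do not overlap, a panel of 20 genes, and up to 3 members of smallest p per list; not every gene of this rule is given in the text. GCLC, AGO2, TNRC6A, HSPA6, DNAJB1, HMOX1, SIRT1, BCL7A and the probe sets given as other observations were named after their values were seen. Members and lists were chosen with earlier results of these data known. Alternatives changed scaling, filter, probe set choice, prior, weights, arrays used and the replicate block. They also left out each array in turn. Filtering and choosing probe sets on the 4 arrays without glucose was added after seeing the data.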

Additional observations from a re-analysis of the deposited data

How the results depend on the processing

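NCOA1 was called in all 20 alternative fits, with differences between −2.01 and −3.20. The count of 3 called genes stayed at 3 under quantile normalization, median centring, array weights and a 1.5-fold minimum. The same 3 genes were called when the filter and the probe set per gene were taken from the 4 arrays without glucose, an alternative chosen after seeing the data (13595 genes tested). It was 4 with a filter at the 60th percentile and 2 with averaged probe sets or without probe sets ending in _s_at or _x_at. It was 1 (NCOA1) without a filter, where more genes were tested, 1 in a fit of only the 4 arrays, and 5 with a prior that follows mean expression. Leaving out each array gave 1 to 2, with the lone array of a group assumed to vary like the others. With the replicate block 1 gene was called, in the fit of 8 arrays and in that of 4, and the numbers do not pair the arrays (correlation −0.0022). SS18 had an adjusted p of 0.0709 and 0.202 with the block and GPR180 0.0709 and 0.134. The cause of these losses was not tested. SS18 was called in 7 of 19 alternatives that hold it, GPR180 in 8 of 20, KLHL5 in 2 and RFX5 in 1. Of all single-gene probe sets 4 were called, and 6 with the filter. Among other named genes only SS18 and GPR180 had a call to lose or reverse. Each lost it in 12 alternatives, of 19 for SS18 and 20 for GPR180, and neither changed direction. A call was gained in 3 comparisons, 2 of KLHL5 and 1 of RFX5. Of all 3455 comparisons of other named genes with their alternatives, 25 moved by more than the spread between replicates. Of 600 list medians 69 moved by that much. The median 95% interval, without adjustment, reached 0.19 on either side of the estimate, so smaller differences were not detectable for a typical gene. A call after adjustment took a much larger difference, and KLHL5 at −0.66 missed it.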

Other observations

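Probe sets outside the gene-level test held a few larger differences, none of which passed the threshold (limma). TSPAN2, a tetraspanin gene whose probe set was too dim for the filter, read 4.11 and 4.11 with control siRNA and 5.18 and 4.86 with SRC-1 siRNA, a difference of 0.91 ± 0.13 (adjusted p = 0.454). FHIP1A read 4.76 and 4.77 against 4.28 and 4.02 (−0.61). HUNK, a kinase gene, read 4.81 and 4.63 against 4.13 and 4.17 (−0.57). A dim probe set of ALDH1L2, a mitochondrial enzyme of folate metabolism, differed by −0.43. SLC27A6, a fatty acid transporter gene, read 3.10 and 3.13 against 3.68 and 3.54 (0.50). A dim probe set of KRR1, a factor of ribosome assembly, also differed by 0.50, with both SRC-1 siRNA arrays above both control arrays. A second probe set of TMEM254 (218174_s_at) that passed the filter read 7.07 and 7.08 against 6.42 and 6.54 (−0.60, adjusted p = 0.524).

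Of the 13522 probe sets that the annotation ties to no gene or to several, 491 had an unadjusted p under 0.05 in limma and none passed adjustment. With the filter the count called was 0 as well, with 142 at an unadjusted p under 0.05. The smallest p belonged to 243298_at, at 4.85 and 4.79 against 4.23 and 4.41 (−0.50).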
